A study of Mus musculus with 9 samples.

Results

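A set of 10 genes that report on, or restrain, signalling through the kinase ERK was described: the feedback inhibitors Spry2, Spry4, Spred1 and Spred2, the phosphatases Dusp4 and Dusp6, the immediate early factors Egr1 and Fos, and the ETS factors Etv4 and Etv5. They were taken as the rows of the expression table whose gene name equals one of these symbols, which gave 10 of 24044 named rows, 1 row per gene, and all 10 passed the filter on low values that left 12711 genes to test. Their RNA was measured by RNA-seq in mouse embryonic stem (ES) cells on gelatin after 2 weeks of Paused, 2i or Serum culture. Each condition has 3 libraries, 1 from the E14 line, 1 from v6.5 and 1 from Oct4 GiP, whose name refers to a reporter of the pluripotency gene Oct4, so there are 9 in all. In the Paused condition the medium held 200 nM INK128, which blocks the mTor kinase, for the 2 weeks. The label 2i is in common use for a pair of inhibitors, of MEK and of GSK3; the labels name neither these nor the medium that INK128 was added to. The study asked how RNA levels differ between the paused, 2i and serum states.

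ERK is the last kinase of the Ras, Raf, MEK and ERK cascade, which runs below receptor tyrosine kinases such as the FGF receptors. Active ERK phosphorylates factors that switch on immediate early genes within minutes, and over hours it raises genes whose products dampen the same cascade, so that levels of Sprouty, Spred and Dusp transcripts are widely read as a record of recent ERK activity. In mouse ES cells autocrine FGF4 keeps this cascade active in serum, and MEK inhibition in 2i blocks it one step above ERK.

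The starts of 3 of the genes are shown, 1 for each of feedback inhibitor, ERK phosphatase and immediate early gene, so that the letters in front of these genes can be read beside their levels. Each line holds the 150 bases before the start of the gene in RefSeq on build GRCm38.p6, 5′ to 3′ along the gene's strand, and overlaps no exon annotated by GENCODE. Capitals mark GGAA or its complement TTCC, the core that ETS factors bind, and TGACGT, a form of the cyclic AMP response element. Spry2 lies on the minus strand with the window at chr14:105896820-105896969, Dusp6 on the plus strand at chr10:99263081-99263230 and Fos on the plus strand at chr12:85473740-85473889.
Spry2: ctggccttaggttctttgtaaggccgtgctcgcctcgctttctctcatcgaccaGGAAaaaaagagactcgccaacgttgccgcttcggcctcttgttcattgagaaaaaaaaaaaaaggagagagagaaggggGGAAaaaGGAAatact
Dusp6: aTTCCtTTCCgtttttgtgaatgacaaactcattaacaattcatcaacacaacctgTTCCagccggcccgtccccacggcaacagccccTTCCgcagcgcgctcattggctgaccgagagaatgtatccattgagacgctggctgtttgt
Fos: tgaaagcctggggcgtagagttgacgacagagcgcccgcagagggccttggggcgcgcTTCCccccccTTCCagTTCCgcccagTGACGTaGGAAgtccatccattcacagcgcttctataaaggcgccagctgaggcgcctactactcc
The Spry2 window held 3 ETS cores, the Dusp6 window 4, and the Fos window 4 and 1 TGACGT. Searched on both strands over 300 bases (250 before and 50 after the start), 7 windows of 6 of the genes could be matched, those of Spry2, Spred1, Spred2, Dusp6 and Fos and a pair for Etv5. GGAA stood in 6 of these 7 windows and in 96% of all 32851 RefSeq windows, so its presence sets these genes apart from no others. The longer ETS site CCGGAA, which contains GGAA, stood in 1 window, that of Spry2, against 14.9% of all windows. TGACGT stood in the Fos and Spred2 windows, against 7.51% of all, and its full palindrome TGACGTCA in 0 of 7, against 1.79%. The CArG box, the core of the serum response element, matched in 0 of 7 windows, against 1.63% of all, which says only that these letters are not in these 300 bases. GGAA and TGACGT were searched after the levels were known.

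The libraries matched their label as ES cells. All 8 ES cell markers passed the filter, and their summed level was 6184 to 6642 FPKM in Paused, 3919 to 4664 in 2i and 4322 to 5678 in Serum. Dppa5a, at 1416 to 2672 FPKM, and Pou5f1, at 998.5 to 1859, were the largest parts of this sum. Single markers differed between conditions. In 2i against Serum Utf1 was called lower, at 126.9 ± 45.0 against 589.8 ± 112.8 FPKM. Nanog was called higher there, at 361.1 ± 28.3 against 155.7 ± 101.5. Markers of other cell types differed between conditions. The 8 fibroblast markers, of which 3 passed the filter, summed to 4.82 to 11.1 FPKM in Paused, 1.49 to 2.71 in 2i and 26.7 to 125 in Serum, and those 3 (Tagln, Col1a1 and Thy1) were called lower both in Paused and in 2i against Serum. Tagln reached 114 FPKM and fell by 3.08 ± 0.48 in Paused and 4.75 ± 0.48 in 2i against Serum (limma, adjusted p = 0.015 and 0.0016), while Lum, Dcn, Postn and Col3a1 were at or under 0.341 FPKM in every library. The 8 trophoblast markers, of which 5 passed, summed to 27.0 to 49.1 FPKM in Paused, 48.6 to 73.9 in 2i and 63.9 to 319 in Serum. Krt8 reached 161 FPKM and Krt18 108, both in E14 Serum, while Tfap2c reached 58.8 in E14 2i and Elf5 stayed at or under 0.0590. The means of Tfap2c and Eomes were higher in 2i, at 42.9 ± 17.1 and 4.10 ± 1.55 FPKM, than in Serum, at 29.9 ± 10.9 and 2.13 ± 1.33. Of the 5 tested, 0 were called higher and 2, Krt8 and Krt18, lower in 2i against Serum. Neuroectoderm markers summed to 25.4 to 44.2 FPKM in Paused, 7.22 to 15.5 in 2i and 29.0 to 58.3 in Serum, mesoderm markers to 1.55 to 2.72, 1.57 to 2.54 and 2.29 to 17.8, and endoderm markers to 5.01 or less in every library. Within the neuroectoderm sum Nes was called lower in Paused against Serum, at 6.23 ± 1.99 against 28.2 ± 5.04 FPKM. Pax6, at 13.6 ± 7.60 against 4.605 ± 2.46, and Sox1, at 8.50 ± 8.69 against 1.71 ± 1.38, were called higher. The E14 Serum library held the highest sums of fibroblast (125 FPKM), trophoblast (319) and mesoderm (17.8) markers. Most of its fibroblast sum was Tagln, at 114 FPKM, and most of its trophoblast sum Krt8 and Krt18. Whether these sums reflect other cells was not tested, nor was their part in the results. In such bulk RNA fewer cells of a type and less RNA per cell cannot be told apart. From the steps between low values, the same FPKM rested on 1.0 to 1.23 times as many fragments as in E14 Serum; the depth itself is not known, and no counting intervals are printed.

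**Figure D1:**
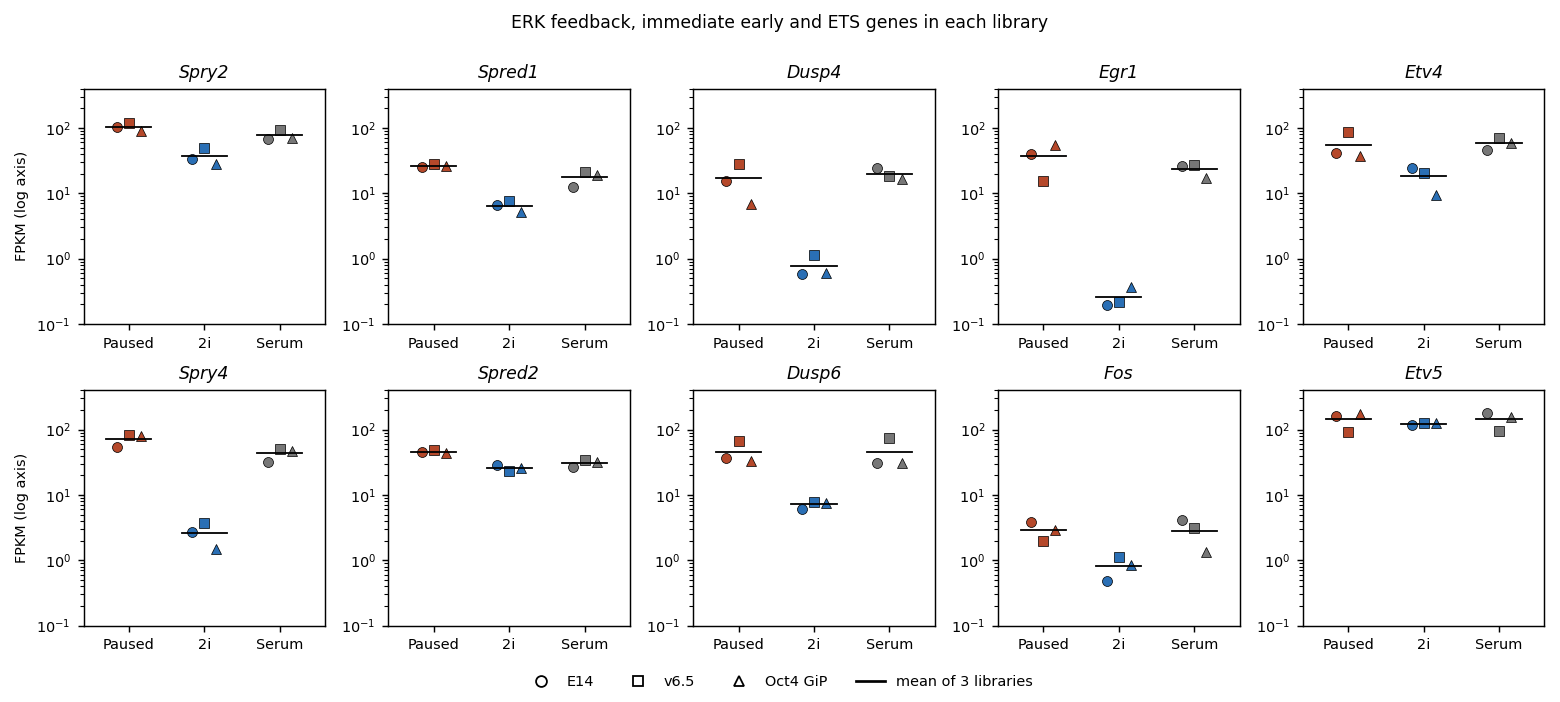
Level of each of the 10 genes in FPKM (log axis) in Paused, 2i and Serum cells. Circles, squares and triangles are the E14, v6.5 and Oct4 GiP libraries and lines are means of 3. In 2i, 8 of the genes lie below every Serum library and 9 below every Paused library, while Etv5 stays between 93.0 and 182 FPKM throughout.

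Levels ran over about 3 orders of magnitude, and the order of the genes differed between conditions. Etv5 was the most abundant in all 3, at 144 ± 44.3 FPKM in Paused, 123 ± 4.31 in 2i and 145 ± 43.7 in Serum (mean ± SD, n = 3 here and throughout). Spry2 followed in all 3, at 104 ± 13.9 FPKM in Paused, 37.3 ± 11.3 in 2i and 76.6 ± 13.8 in Serum. Fos was the lowest in Paused and in Serum, at 2.95 ± 0.950 FPKM and 2.86 ± 1.41. In 2i Egr1 was the lowest instead, at 0.259 ± 0.0974 FPKM, although it ranked number 7 of the 10 in Paused and in Serum. Spry4 ranked number 3 in Paused, number 7 in 2i and number 5 in Serum. In Paused and Serum most neighbours in this order had overlapping ranges: the libraries of 7 of 9 neighbouring pairs overlapped in each. In 2i 4 of 9 pairs overlapped, so that Etv5, then Spry2, Spred2 and Etv4, then Dusp6 and Spred1, then Spry4, then Fos and Dusp4, and last Egr1 formed levels that did not overlap.

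The 2i cells had lower transcripts of 8 of the 10 genes than Serum cells, spanning feedback inhibitors, phosphatases, both immediate early genes and Etv4. Every call was made with limma-trend on log2(FPKM + 1) in 1 fit of all 9 libraries with the line as a block, with Benjamini-Hochberg adjustment over the 12711 tested genes and a threshold of 0.05. By that rule 40.6% of all tested genes were called, and 18.9% were called lower, against 8 of 10 of these genes lower and 0 higher. Their median log2 fold change was -1.50, against 0.02 over all tested genes. Fibroblast and neuroectoderm marker sums were also lower in every 2i library than in every Serum library, and their part in these changes was not tested. In FPKM the 8 called genes did not overlap between 2i and Serum in any library, which held in the same direction for 22.4% of all tested genes. The direction was the same in all 3 lines for each of the 8. Log2 fold changes on this scale understate the change of low genes, so ratios of FPKM within each line are given beside them.

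The Sprouty and Spred proteins act between receptor and Raf: Sproutys dampen receptor tyrosine kinase signalling to Ras, and Spreds bring the Ras inhibitor neurofibromin to the membrane. In the sentences that follow, values within a condition are in the order E14, v6.5 and Oct4 GiP. Spry4 stood at 54.2, 83.8 and 79.8 FPKM in Paused, at 2.74, 3.70 and 1.49 in 2i and at 31.8, 51.1 and 46.9 in Serum. Its 3 conditions did not overlap, with every 2i library far below the rest and every Paused library above every Serum library. In 2i it fell by 3.62 ± 0.23 on the log2 scale against Serum (limma estimate ± SE; adjusted p = 0.00070), and Serum cells held 11.6, 13.8 and 31.5 times the FPKM of 2i cells. Spry2 stood at 103, 118 and 90.1 FPKM in Paused, at 33.8, 49.9 and 28.1 in 2i and at 67.8, 92.5 and 69.5 in Serum. The 2i libraries were the lowest here too, but the gap to Serum was about 2-fold, with a log2 fold change of -1.04 ± 0.11 (limma, adjusted p = 0.0017).

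Spred1 stood at 25.0, 28.2 and 26.5 FPKM in Paused, at 6.64, 7.53 and 5.14 in 2i and at 12.4, 20.9 and 19.1 in Serum. All 3 conditions were again separate, with 2i lowest and Paused highest, and the fold change of 2i against Serum was -1.30 ± 0.17 (limma, adjusted p = 0.0030). Spred2 stood at 46.0, 48.7 and 43.2 FPKM in Paused, at 28.6, 23.2 and 25.7 in 2i and at 26.4, 34.1 and 32.5 in Serum. It was the inhibitor that separated 2i from Serum least: the E14 2i library lay above the E14 Serum library, and the change of -0.25 ± 0.13 did not pass the test (limma, adjusted p = 0.18).

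Dusp4 and Dusp6 remove phosphate from ERK, Dusp4 in the nucleus and Dusp6 in the cytoplasm. Dusp4 stood at 15.5, 28.2 and 6.95 FPKM in Paused, at 0.583, 1.14 and 0.607 in 2i and at 24.2, 18.1 and 16.5 in Serum. It was at 1.14 FPKM or less in every 2i library, while Paused spread widely around Serum. The fold change of 2i against Serum was -3.53 ± 0.34 (limma, adjusted p = 0.0015), with 41.5, 15.9 and 27.2 times the 2i FPKM in Serum. Dusp6 stood at 37.4, 67.8 and 32.7 FPKM in Paused, at 6.18, 7.84 and 7.55 in 2i and at 31.1, 74.8 and 30.8 in Serum. It kept a clear level in 2i, fell by 2.39 ± 0.23 against Serum (limma, adjusted p = 0.0015), and was highest in v6.5 in both other conditions.

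Egr1 is a zinc finger factor and Fos a subunit of the AP-1 factor, and both are induced by ERK within minutes of a stimulus. Egr1 stood at 40.5, 15.5 and 55.0 FPKM in Paused, at 0.192, 0.213 and 0.370 in 2i and at 26.5, 27.0 and 17.0 in Serum. No gene of the 10 fell further: the 3 libraries of 2i were under 1 FPKM and those of Paused and Serum at 15.5 or more. Its log2 fold change of 2i against Serum was -4.26 ± 0.42 (limma, adjusted p = 0.0015), with 138, 127 and 45.9 times the 2i FPKM in Serum. Fos stood at 3.91, 2.01 and 2.94 FPKM in Paused, at 0.474, 1.13 and 0.850 in 2i and at 4.14, 3.10 and 1.34 in Serum. The ranges of 2i and Serum came close, and the change of -1.03 ± 0.31 passed the test narrowly (limma, adjusted p = 0.041); it passed in 8 of the 20 alternatives run in FPKM, with fold changes of -1.62 to -0.42.

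Etv4 and Etv5 are ETS factors of the PEA3 group, which FGF signalling induces in many tissues. Etv4 stood at 41.2, 87.7 and 37.8 FPKM in Paused, at 24.3, 20.6 and 9.54 in 2i and at 46.3, 69.6 and 59.4 in Serum. Every 2i library was below every other, and the fold change of 2i against Serum was -1.71 ± 0.32 (limma, adjusted p = 0.0081). Etv5 stood at 162, 93.0 and 176 FPKM in Paused, at 118, 125 and 126 in 2i and at 182, 96.8 and 157 in Serum. Its conditions overlapped, its change of -0.19 ± 0.20 did not pass the test (limma, adjusted p = 0.49), and it was higher in 2i than in Serum in v6.5, but lower in the other 2 lines. An F test over the 3 conditions in the same limma fit called 9 of the 10 genes, against 54.8% of all tested genes, and Etv5 was the one it did not call (adjusted p = 0.65).

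Cells in the Paused condition, set against 2i, held higher transcripts of 9 of the 10 genes. In this comparison 44.4% of all tested genes were called and 19.8% called higher, and the median fold change was 1.73 over the 10 genes and -0.03 over all tested genes. The 9 called genes did not overlap between Paused and 2i, as 23.6% of all tested genes did not in that direction. The largest differences were those of Egr1, 4.75 ± 0.42, Spry4, 4.36 ± 0.23, and Dusp4, 3.15 ± 0.34 (limma log2 fold change ± SE, adjusted p = 0.00079, 0.00028 and 0.0013). Egr1 in Paused cells held 211, 72.6 and 149 times the FPKM of 2i cells of the same line. Dusp6 followed at 2.45 ± 0.23, Spred1 at 1.90 ± 0.17, Etv4 at 1.55 ± 0.32, Spry2 at 1.48 ± 0.11, Fos at 1.11 ± 0.31 and Spred2 at 0.81 ± 0.13 (adjusted p of 0.030 or less in the same fit). Fos passed in 13 of the 20 alternatives run in FPKM, with fold changes of 0.45 to 1.75. Etv5, at 0.17 ± 0.20, did not pass the test (limma, adjusted p = 0.53), and in v6.5 it was lower in Paused than in 2i. The 3 comparisons share libraries in pairs, so their results are not independent of each other.

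**Figure D2:**
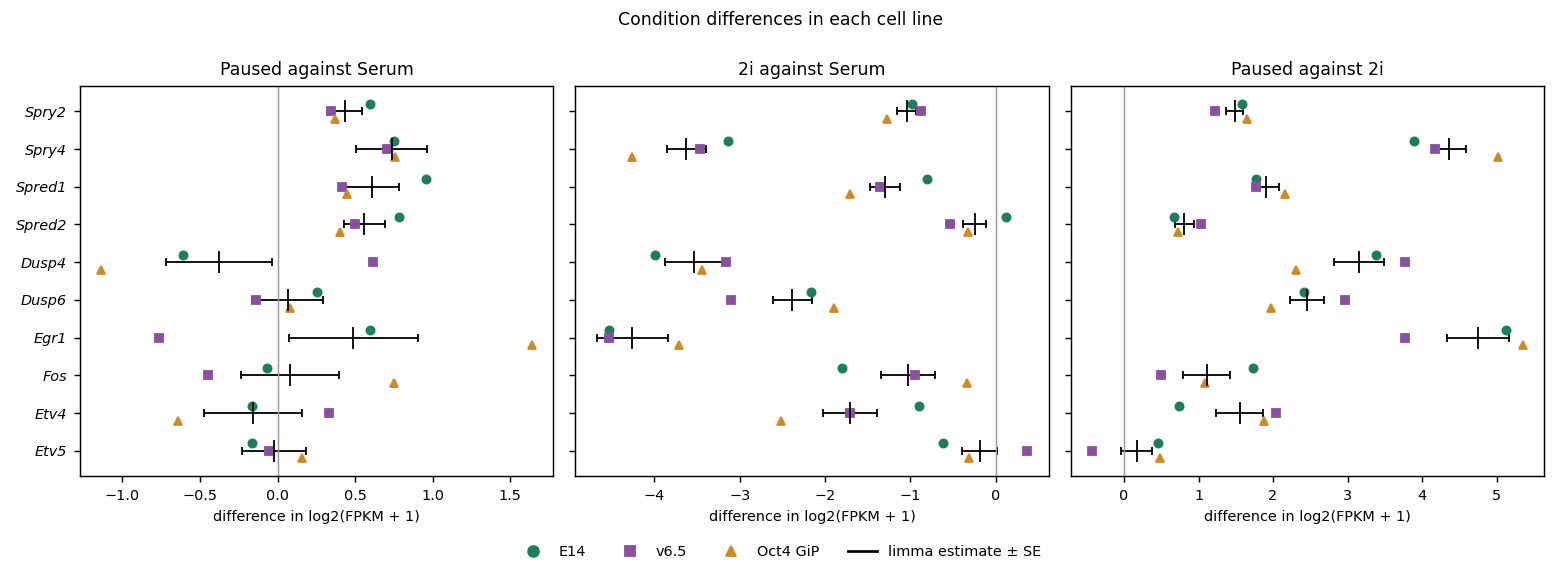
Difference in log2(FPKM + 1) between conditions for each gene, by line (E14 circles, v6.5 squares, Oct4 GiP triangles), with the limma estimate ± SE in black. Against 2i the Paused cells lie to the right for all 3 lines except for Etv5 in v6.5, and against Serum the 4 Sprouty and Spred genes lie to the right in all 3 lines while the other 6 genes spread to both sides of 0.

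In FPKM, Paused cells had higher Spry2 and Spred2 than Serum cells, and no gene of the 10 was called lower. The comparison called 18.2% of all tested genes, 7.64% of them higher and 10.5% lower, so 2 of 10 called is near the share of all genes. Spred2 changed by 0.56 ± 0.13 and Spry2 by 0.44 ± 0.11 (limma, adjusted p = 0.036 and 0.041), which is 1.74, 1.43 and 1.33 times the Serum FPKM for Spred2 and 1.52, 1.27 and 1.30 times for Spry2. Spry4, at 0.74 ± 0.23, and Spred1, at 0.61 ± 0.17, had larger estimates but wider errors and did not pass (limma, adjusted p = 0.070 and 0.056). All 4 were higher in Paused in 3 of 3 lines, and Spry4, Spred1 and Spred2 did not overlap between Paused and Serum; 17.3% of all tested genes did not overlap in that direction. The median fold change was 0.26 over the 10 genes and -0.01 over all tested genes. These directions hold in FPKM only. On the second deposited scale, described below, Spry2 was called lower, at -0.49 (limma, adjusted p = 0.013), and Spred2 stood at -0.35. Fibroblast and trophoblast marker sums were lower in every Paused library than in every Serum library, and their part in these changes was not tested.

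Calls in this comparison depended on every Serum and Paused library, for all genes and not only for these. Leaving out any 1 of these 6 libraries left 0 of the 10 genes called, with 12 to 787 of the 12711 tested genes called, and leaving out a whole line left 0 of the 10 with 4 to 7 called, against 2311 with all libraries. The fold changes stayed at 0.36 to 0.52 for Spry2 and 0.42 to 0.65 for Spred2 when libraries or lines were left out. Leaving out the E14 2i library gave 4 of the 10, the Sprouty and Spred genes, with 3223 of all tested genes called, and leaving out the Oct4 GiP 2i library gave Spry2 and Spry4, with 1483 called. Without the E14 Serum library, which stood apart in fibroblast and trophoblast markers, the 4 estimates were 0.38 ± 0.13 for Spry2, 0.61 ± 0.27 for Spry4, 0.40 ± 0.14 for Spred1 and 0.42 ± 0.12 for Spred2 (limma, adjusted p = 0.13, 0.20, 0.13 and 0.091).

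The phosphatases, immediate early genes and ETS factors did not pass the test between Paused and Serum, and each of these 6 genes was higher in Paused in some lines and lower in others. Dusp6 was within 0.07 ± 0.23 of Serum (limma, adjusted p = 0.86), with Paused at 1.20, 0.907 and 1.06 times the Serum FPKM. Dusp4, at -0.38 ± 0.34 (limma, adjusted p = 0.46), was at 0.640 times Serum in E14 and 0.422 times in Oct4 GiP, but at 1.56 times in v6.5. Egr1, at 0.49 ± 0.42 (limma, adjusted p = 0.43), went the other way, at 1.53 and 3.24 times Serum in E14 and Oct4 GiP and at 0.573 times in v6.5. Fos at 0.08 ± 0.31, Etv4 at -0.16 ± 0.32 and Etv5 at -0.02 ± 0.20 did not pass either (limma, adjusted p = 0.88, 0.75 and 0.95). With standard errors of 0.20 to 0.42, a p above the threshold does not show equal levels.

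**Figure D3:**
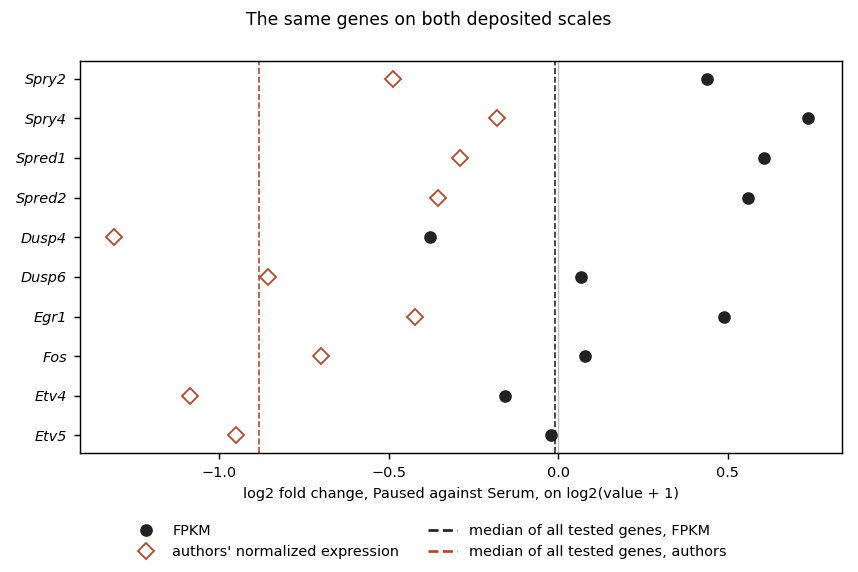
Log2 fold change of Paused against Serum on both deposited scales, FPKM (filled circles) and the authors' normalized expression (open diamonds), with the median of all 12711 tested genes as dashed lines. In FPKM 7 of 10 genes lie above 0, and on the authors' scale 0 of 10, while the median of all genes moves to -0.88.

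The direction of the Paused and Serum difference turned on the scale. The authors also deposited each FPKM multiplied by 1 constant per library, from 1.81, 1.84 and 1.99 in Paused and 2.45 to 3.17 in 2i to 3.40 to 3.74 in Serum. The sources used here do not say how the constants were made. ERCC RNA was spiked into the libraries, and whether the constants rest on it is not stated either. On that scale all 10 genes were below 0 for Paused against Serum, and the median over the 10 was -0.59 against -0.88 over all tested genes. Dusp4 at -1.31, Etv4 at -1.09, Etv5 at -0.95, Dusp6 at -0.86 and Spry2 at -0.49 were called lower with limma, 5 of 10, where 76.9% of all tested genes were called lower and 0.378% higher. Spry2 was thus called in both, higher in FPKM but lower with the constants. Set against the median gene of the same scale, Spry2, Spry4, Spred1, Spred2, Dusp6, Egr1 and Fos stood above it on both scales, and Dusp4, Etv4 and Etv5 below it on both. With 1 constant per library this likeness holds nearly by construction and gives no separate evidence. In FPKM, Dusp6 (0.07 ± 0.23), Fos (0.08 ± 0.31), Etv4 (-0.16 ± 0.32) and Etv5 (-0.02 ± 0.20) lay within their SE of the median of -0.01. For 2i against Serum all 10 were called lower on the authors' scale, as were 35.7% of all tested genes. For Paused against 2i 7 stayed called higher there, as were 6.21% of all tested genes; Spred2 and Fos were the ones lost, and Etv5 turned to -0.39.

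**Figure D4:**
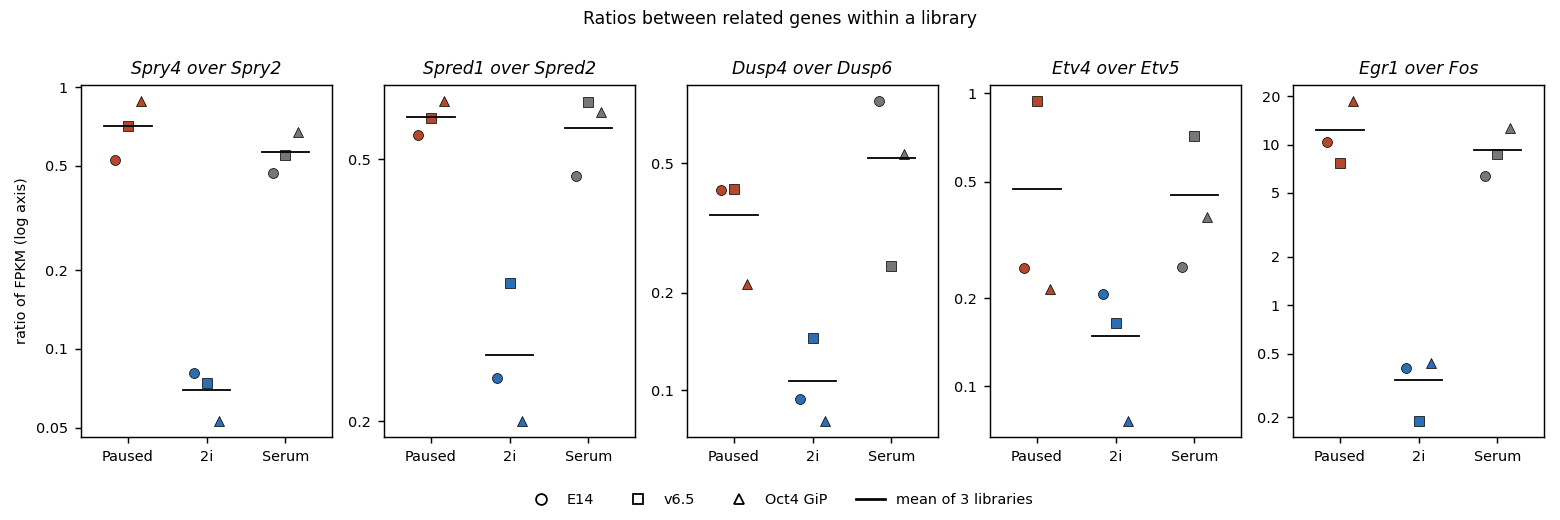
Ratio of FPKM between related genes in each library (log axes, which differ between panels), in Paused, 2i and Serum cells, with the mean of 3 libraries as a line. In each of the 5 ratios every 2i library lies below every Paused and Serum library.

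A ratio of related genes within a library does not depend on either scale. All 5 ratios set here were lower in every 2i library than in every Paused or Serum library. Spry4 was 0.708 ± 0.179 times Spry2 in Paused, 0.0693 ± 0.0146 times in 2i and 0.566 ± 0.103 times in Serum. For Spred1 over Spred2 the ratio was 0.579 ± 0.0345 in Paused, 0.252 ± 0.0643 in 2i and 0.558 ± 0.0758 in Serum. Both inhibitor families thus kept one member, Spry2 and Spred2, nearer to its Serum level in 2i. The ratio of Dusp4 to Dusp6 was 0.348 ± 0.117 in Paused, 0.107 ± 0.0341 in 2i and 0.518 ± 0.269 in Serum. That of Etv4 to Etv5 was 0.471 ± 0.409 in Paused, 0.149 ± 0.0664 in 2i and 0.451 ± 0.240 in Serum. Egr1 exceeded Fos 12.3 ± 5.74 times in Paused and 9.26 ± 3.16 times in Serum, but in 2i it stood at 0.344 ± 0.134 of Fos. Paused and Serum overlapped in all 5 ratios. The pairs were set after the levels were seen, so they are given without a test.

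The v6.5 line stood apart for Dusp6 and Etv5 in Paused and Serum but not in 2i. Dusp6 in v6.5 was 67.8 FPKM in Paused and 74.8 in Serum, against 30.8 to 37.4 in the 4 other Paused and Serum libraries, while in 2i its 7.84 FPKM lay beside 6.18 and 7.55. Etv5 went the other way, at 93.0 FPKM in Paused and 96.8 in Serum in v6.5 against 157 to 182 in the 4 others, with 125 in 2i beside 118 and 126. Etv4 over Etv5 reached 0.943 in Paused and 0.719 in Serum in v6.5, against 0.215 to 0.378 in the other lines. With condition held in the same limma fit, 0 of the 10 genes were called between any 2 lines, and 0 by an F test over the lines, which called 1.5% of all tested genes. For v6.5 against E14 2.08% of all tested genes were called, for v6.5 against Oct4 GiP 0.551% and for Oct4 GiP against E14 0.00787%. Unadjusted p was under 0.05 for 3, 4 and 0 of the 10 in that order, and for 2351, 1961 and 1646 of all 12711 tested genes. Dusp6 differed by 0.80 ± 0.23 between v6.5 and E14 and by 0.78 ± 0.23 between v6.5 and Oct4 GiP (limma, adjusted p = 0.14 and 0.20). Etv5 differed by -0.54 ± 0.20 in both (limma, adjusted p = 0.24 and 0.29). Without the v6.5 2i library Dusp6 was called in both comparisons and Etv5 against Oct4 GiP. That fit called 93 of all 12711 tested genes between v6.5 and E14 and 158 between v6.5 and Oct4 GiP. It leaves out the v6.5 library that did not stand apart for these genes, so its calls give no separate evidence of a line difference. With 1 library per line and condition, whether a line difference itself differs between conditions was not tested.

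Across the 9 libraries 9 of the genes moved together and Etv5 did not. Pearson r with the mean profile of the 10 z-scored genes, a profile that includes each gene itself, was 0.778 for Spred2 to 0.990 for Spry4 and 0.218 for Etv5. Between pairs it ran from -0.131 for Etv4 and Etv5 to 0.978 for Spry4 and Spred1. These values rest mostly on the drop in 2i that the libraries share. After the condition means were removed, Spry4 and Spred1 kept an r of 0.881 and Egr1 and Fos 0.626, while Dusp6 and Etv5 stood at -0.942 and Dusp4 and Egr1 at -0.751. All are descriptions over 9 libraries.

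Outside the 10, the named genes whose log2(FPKM + 1) followed their mean profile most closely over the 9 libraries were Pdzd4, Syt5, Esrp1, Grhl1, Nop58, Ptprf, Zfp105 and L1td1, with r of 0.995 to 0.987. Pdzd4 stood at 80.8 ± 7.22 FPKM in Paused, 5.58 ± 1.30 in 2i and 61.1 ± 7.34 in Serum. Esrp1, an epithelial splicing factor, stood at 25.2 ± 3.62 FPKM in Paused, 0.772 ± 0.255 in 2i and 21.0 ± 8.10 in Serum. The closest genes to single members were Dppa4 to Spred1 (r = 0.996), Clca4a to Dusp6 (0.994), L1td1 to Spry4 (0.994), Bnipl to Egr1 (0.992), Exog to Spry2 (0.991), Tmem88 to Dusp4 (0.985) and Senp6 to Spred2 (0.984). Etv4 came closest to Plac9b (0.968), Fos to Snord69 (0.958) and Etv5 to Stard8 (0.955).

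Other negative regulators of the pathway were called in both directions in each comparison, with Spry1 and Il17rd among those that rose in Paused cells. Of 20 tested genes in this list, 3 were called higher and 1 lower in Paused against Serum, 2 higher and 6 lower in 2i against Serum, and 6 higher and 3 lower in Paused against 2i. Their median fold changes were 0.15, -0.01 and 0.07 in that order, against -0.01, 0.02 and -0.03 over all tested genes. For this and the other lists, the shares of all tested genes called higher and lower were 7.64% and 10.5% in Paused against Serum, 21.7% and 18.9% in 2i against Serum, and 19.8% and 24.6% in Paused against 2i. With the authors' constants these shares were 0.378% and 76.9% in Paused against Serum. In 2i against Serum 35.7% were then called lower, and 5778 of 12711 in either direction. In Paused against 2i 6.21% were then called higher, and 7711 of 12711 in either direction. The medians over all tested genes with these constants were -0.88, -0.33 and -0.56 in the same order. Spry1, another Sprouty, stood at 16.7 ± 1.94 FPKM in Paused, 4.69 ± 1.12 in 2i and 7.19 ± 1.37 in Serum, and rose by 1.12 ± 0.16 in Paused against Serum (limma, adjusted p = 0.014). Il17rd, also known as Sef, which inhibits FGF signalling, stood at 18.8 ± 4.20 FPKM in Paused, 7.16 ± 1.07 in 2i and 7.19 ± 0.903 in Serum, and rose by 1.25 ± 0.19 (limma, adjusted p = 0.015). The phosphatase Dusp5 was lower in 2i, at 5.44 ± 1.55 FPKM against 11.2 ± 1.20 in Serum, and Dusp14 was lower in Paused than in 2i, at 1.73 ± 0.624 FPKM in Paused and 15.8 ± 10.5 in 2i. On the authors' scale Spry1 and Il17rd stayed above 0 for Paused against Serum, at 0.28 and 0.42, where 0 of the 20 were called higher and 15 lower; there 1 was higher and 8 lower in 2i against Serum, and 5 higher and 8 lower in Paused against 2i.

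Of the immediate early genes other than Egr1 and Fos, 13 of 25 were called lower in 2i against Serum and 7 in Paused against Serum. In full, 1 was called higher and 7 lower in Paused against Serum, 2 higher and 13 lower in 2i against Serum, and 8 higher and 4 lower in Paused against 2i, with medians of -0.19, -0.63 and 0.29. On the authors' scale 0 were higher and 20 lower, 1 higher and 16 lower, and 6 higher and 5 lower, in the same order of comparisons. Myc, a growth-promoting factor, stood at 83.3 ± 16.3 FPKM in Paused, 5.57 ± 1.86 in 2i and 61.0 ± 5.07 in Serum, a fold change of 3.70 ± 0.15 for Paused against 2i (limma, adjusted p = 0.00026). Junb, an AP-1 subunit, stood at 51.5 ± 21.0 FPKM in Paused, 13.0 ± 8.06 in 2i and 43.3 ± 9.08 in Serum. Atf3, Btg2 and Fosl2 fell by 1.36 ± 0.22, 1.34 ± 0.22 and 0.97 ± 0.14 in Paused against Serum (limma, adjusted p = 0.016, 0.017 and 0.014), and each of these was at 4.05 FPKM or less in Paused on average. The means of Atf3 and Btg2 in 2i were above those in Serum, with Atf3 at 0.653 ± 0.442 FPKM in Paused, 4.09 ± 1.58 in 2i and 3.30 ± 1.37 in Serum, and Btg2 at 4.05 ± 0.783, 17.7 ± 5.94 and 11.7 ± 1.74. Klf4, a naive pluripotency factor, was higher in 2i, at 149 ± 14.8 FPKM against 52.3 ± 36.0 in Serum. Heat shock genes, which other stimuli induce too, gave 0 higher and 3 lower of 9 in Paused against Serum, 2 and 3 in 2i against Serum, and 0 and 3 in Paused against 2i, with medians of -0.26, -0.30 and -0.07, and on the authors' scale 0 and 9, 1 and 6, and 0 and 6.

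**Figure D5:**
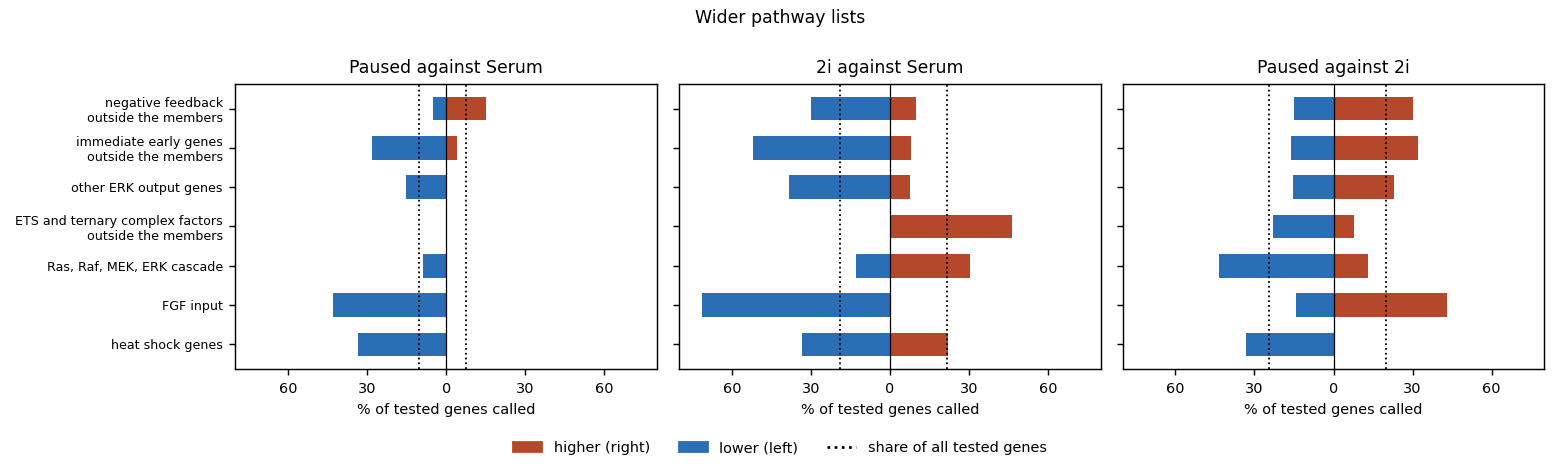
Share of the tested genes of each wider list that were called higher (right, red) or lower (left, blue) in each comparison, with the share of all tested genes as dotted lines. FGF input and immediate early genes reach furthest to the left in 2i against Serum, at 5 of 7 and 13 of 25, and ETS factors furthest to the right, at 6 of 13.

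Genes that act between receptor and ERK were called in both directions in 2i against Serum, and which direction held more of them turned on the scale. Of 23 tested genes of the Ras, Raf, MEK and ERK cascade, 0 were called higher and 2 lower in Paused against Serum, 7 higher and 3 lower in 2i against Serum, and 3 higher and 10 lower in Paused against 2i, with medians of -0.07, 0.14 and -0.29. On the authors' scale 0 were higher and 22 lower, 2 higher and 5 lower, and 0 higher and 17 lower, in the same order. The scaffold Ksr1 stood at 4.07 ± 0.420 FPKM in Paused, 10.8 ± 2.10 in 2i and 3.55 ± 0.579 in Serum, and Map2k1, which encodes MEK1, at 34.7 ± 1.35 FPKM in Paused, 58.8 ± 2.24 in 2i and 45.0 ± 6.29 in Serum. Map2k1 fell by 0.36 ± 0.10 in Paused against Serum (limma, adjusted p = 0.0496). Among ETS and ternary complex factors other than Etv4 and Etv5, 0 of 13 were called in Paused against Serum, 6 were higher and 0 lower in 2i against Serum, and 1 was higher and 3 lower in Paused against 2i, with medians of 0.14, 0.39 and -0.25. On the authors' scale these counts were 0 higher and 10 lower, 2 higher and 1 lower, and 1 higher and 10 lower. Elf3 rose to 67.6 ± 13.2 FPKM in 2i, against 14.4 ± 3.10 in Serum, and Etv1, also of the PEA3 group, stood at 11.0 ± 2.11 FPKM in Paused and 4.06 ± 1.47 in 2i (limma, adjusted p = 0.0013 and 0.0043).

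FGF ligands, receptors and cofactors gave 0 higher and 3 lower of 7 in Paused against Serum, 0 and 5 in 2i against Serum, and 3 and 1 in Paused against 2i, with medians of -0.44, -1.41 and 0.48, and on the authors' scale 0 higher and 5 lower, 0 and 5, and 3 and 1. Fgf15, a secreted ligand, stood at 16.9 ± 13.9 FPKM in Paused, 0.216 ± 0.120 in 2i and 7.84 ± 3.93 in Serum, and the receptor gene Fgfr2 at 2.83 ± 1.02 in Paused, 0.659 ± 0.644 in 2i and 6.90 ± 0.366 in Serum. Both were lower in 2i than in Serum (limma, adjusted p = 0.0065 and 0.00092). Of 13 other tested ERK output genes 0 were called higher and 2 lower in Paused against Serum, 1 higher and 5 lower in 2i against Serum, and 3 higher and 2 lower in Paused against 2i, with medians of -0.11, 0.10 and 0.02, and on the authors' scale 0 higher and 8 lower, 1 and 6, and 2 and 4. Plaur, the urokinase receptor, stood at 25.9 ± 2.73 FPKM in Paused, 2.77 ± 1.31 in 2i and 23.4 ± 2.83 in Serum, and the receptor gene Epha2 at 137 ± 48.7 in Paused, 47.0 ± 17.5 in 2i and 99.8 ± 15.8 in Serum. Other genes of this list went other ways. Spp1 was highest in 2i, at 215.4 ± 41.1 FPKM in Paused, 420.5 ± 46.9 in 2i and 176.4 ± 91.6 in Serum. Lif was lowest in Paused, at 0.628 ± 0.188, 3.13 ± 0.657 and 2.14 ± 0.217 in that order. Vgf was highest in Serum, at 1.94 ± 0.550, 0.741 ± 0.216 and 11.9 ± 8.70.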

How the data were processed

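Per the labels' protocols, a directional kit and 250 ng of total RNA were used for each library, with ERCC RNA spiked in. The deposited table gives FPKM from Cuffnorm on build mm10, per the submitters' processing notes. Aligner, annotation and strand use in counting: not given in the sources used here. A second deposited column per library, a normalized signal, is the FPKM times 1 constant per library. Rows without a gene name (5644 of 29801) and 113 identical repeats were left out. No exon of the 10 genes overlaps an exon of another gene in GENCODE M21.

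Genes that reached 1 FPKM in 3 libraries were tested with limma 3.58.1 (R 4.3.3) on log2(FPKM + 1), checked on simulated data. There 50 genes were changed at each size, far fewer than the real data called. Changes of 0.5 on the log2 scale were recovered in 18% for Paused against Serum, 16% for 2i against Serum and 12% for Paused against 2i. For changes of 1 these shares were 70%, 60% and 56%, and for changes of 2 they were 94%, 88% and 96%. The line was a block because the labels name it: deviations from condition means correlated at -0.001 to 0.401 within a line and -0.243 to 0.094 between lines. Nothing says that libraries are separate cultures beyond their line and condition, so p-values measure the spread between these libraries. An exact permutation test of 3 against 3 libraries cannot give a p under 0.1 and was not used. Genes and lists, and the rule naming up to 3 called genes per list and comparison, were chosen with earlier results of these data known; not every gene within the rule is reported here. Alternatives were pseudocounts of 0.1 and 5, no filter or FPKM of 5, the authors' scale, median centring, quantile normalization, no block, only the 6 libraries compared, no variance trend, and leaving out libraries or lines.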

Additional observations from a re-analysis of the deposited data

Results flagged for a closer look

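Dusp4 moved opposite ways in different lines in Paused against Serum, by 0.5 or more on the log2(FPKM + 1) scale each way. The difference was -0.61 in E14 and -1.14 in Oct4 GiP but 0.61 in v6.5. Egr1 did so with the signs exchanged, at 0.59 in E14 and 1.64 in Oct4 GiP but -0.76 in v6.5. Each line has 1 library per condition, so the difference between lines was not tested.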

How the results depend on the processing

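For 2i against Serum and Paused against 2i the counts of called genes among the 10 stayed within 1.5 times under every alternative run. The calls over all tested genes moved more. In 2i against Serum the count of 8 (with 5161 of all tested genes called) became 6 (1269) without the Oct4 GiP line and 10 (5778) on the authors' scale. Etv4 was among those lost without Oct4 GiP (limma, adjusted p = 0.076). In Paused against 2i the count of 9 (5638) became 7 (7711) on the authors' scale. For Paused against Serum the count of 2 (with 2311 of all 12711 tested genes called) became 4 (2220) with a pseudocount of 5, 4 (2719) with only the 6 libraries compared, 1 (1602) with no replicate block, 1 (2218) with no variance trend, 0 (1641 of 20460) with no filter and 5, all lower, (9827) on the authors' scale; leaving out libraries or lines gave 0 to 4 (4 to 3223). Leaving out libraries gave 0 to 1 for v6.5 against E14 and 0 to 2 for v6.5 against Oct4 GiP. These upper counts were reached without the v6.5 2i library, for which the calls over all tested genes are given above. On the authors' scale Paused against Serum turned to -0.49 for Spry2, -0.18 for Spry4, -0.29 for Spred1, -0.35 for Spred2, -0.86 for Dusp6, -0.42 for Egr1 and -0.70 for Fos, by construction of the constants, and Etv5 in Paused against 2i to -0.39; quantile normalization put Etv5 in Paused against Serum at 0.15, where the cause was not tested. Leaving out libraries or lines moved Paused against Serum from -0.87 to 0.023 for Dusp4, -0.059 to 0.30 for Dusp6, -0.085 to 1.12 for Egr1, -0.26 to 0.36 for Fos, -0.40 to 0.16 for Etv4 and -0.15 to 0.14 for Etv5, and Etv5 from -0.48 to 0.024 in 2i against Serum and -0.0093 to 0.47 in Paused against 2i. The block changed 1 call: without it Spry2 in Paused against Serum was lost.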
